A study of Danio rerio with 8 samples.

Results

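The genes described here carry sodium, chloride, bicarbonate, phosphate or glucose across the epithelia of the pronephros and of skin ionocytes, or power that transport as subunits of the sodium pump. They were chosen by gene name, and a name with several transcripts was to be represented by the one with the highest mean over all libraries, although each name found had a single transcript. Of 10 names listed, 9 were found among the 13766 names of the deposited table, which holds 14581 transcripts. The remaining name is not analysed here. Of the 9, 8 reached the mean of 1 RPKM needed for testing. Just inside that limit was clcnk at 2.05 RPKM, and just outside it was atp1a1a.5 at 0.712 RPKM.

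The series measured polyadenylated RNA in 8 libraries of zebrafish trunk at 38 to 40 hours after fertilisation, with heads and yolks removed. MUT embryos carried the p162 allele on both copies of foxc1a (foxc1ap162/p162), a forkhead transcription factor gene, and SIB embryos were their siblings, which the sample labels give as foxc1ap162/+ and the design text as wild type. AS pieces held somitic segments 1 to 6 and PS pieces held segments 7 to about 12, so the groups were MUT_AS, SIB_AS, MUT_PS and SIB_PS, with 2 libraries each, called replicates 1 and 3. The labels do not say that replicates came from separate clutches, so p-values measure only the spread between these libraries.

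In the zebrafish embryo the pronephros is a paired tubule that runs back along the trunk from a glomerulus below the anterior somites. Its proximal segments take up solutes such as phosphate, bicarbonate and glucose, and its distal segments reabsorb sodium and chloride before the fluid reaches the duct and the cloaca. Ionocytes are scattered cells of the skin that exchange ions with the water, and different ionocyte types use different alpha subunits of the sodium pump, the Na,K-ATPase. In pieces of whole trunk, fewer cells of a type and less RNA per cell cannot be told apart.

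The unit is RPKM, a read number divided by transcript length and by library size, which allows levels of different genes to be set side by side. The deposited table held no counts, so the depth of a library could be judged only from its smallest values. MUT_AS replicate 3 stood apart, where 17.5% of transcripts had the value 0, while elsewhere that share lay between 4.6% and 8.0%. Its 1st percentile of nonzero values was 0.316 RPKM, against 0.0096 to 0.0506 RPKM elsewhere. Values of that library under about 0.3 RPKM are therefore poorly resolved, and results for these genes whose call changes without it are also given without it. The mutated gene itself, foxc1a, had 19.3 and 16.3 RPKM in MUT_AS, 18.1 and 16.3 RPKM in SIB_AS, 9.02 and 7.74 RPKM in MUT_PS and 7.74 and 7.32 RPKM in SIB_PS, so its transcript level did not check the genotype labels. Skeletal muscle genes, the defining markers of somites, summed to between 15729 and 63071 RPKM over 12 genes, with none at 0.

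Of the genes described, slc12a3 differed most between regions, and clcnk, another gene of distal segments, differed the same way. The slc12a3 gene encodes the thiazide-sensitive sodium chloride cotransporter, a marker of the late distal tubule. It had 0.0236 and 0.434 RPKM in MUT_AS, 0.0212 and 0.0466 RPKM in SIB_AS, 15.6 and 11.6 RPKM in MUT_PS, and 11.9 and 7.16 RPKM in SIB_PS. All 4 PS libraries lay far above all 4 AS libraries, in which between 0.8% and 2.5% of the nonzero transcripts of the library had a lower value. No ratio is given against values this close to the detection limit. On the log2(RPKM + 1) scale, which understates changes of low genes, slc12a3 was lower in MUT_AS than in MUT_PS by a difference of -3.57 (SE 0.26, limma adjusted p = 4.25e-05). The same difference between SIB_AS and SIB_PS was -3.31 (SE 0.26, limma adjusted p = 9.1e-05). The slc12a3 gene reached the mean of 1 RPKM needed for testing only through its PS libraries. It had to differ between regions to be tested at all, so these values are given as a description.

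The clcnk gene encodes a kidney chloride channel that lets chloride leave distal tubule cells on the blood side. In MUT_AS it had 0.123 RPKM in replicate 1 and was listed at 0 in replicate 3, and in SIB_AS it had 0.0685 and 0.113 RPKM. It reached 4.48 and 3.94 RPKM in MUT_PS and 4.41 and 3.29 RPKM in SIB_PS, again with no overlap between regions. The difference of log2 values was -2.30 for MUT_AS against MUT_PS (SE 0.19, limma adjusted p = 7.85e-05) and -2.14 for SIB_AS against SIB_PS (SE 0.19, limma adjusted p = 0.000168). As with slc12a3, the AS libraries lay near the detection limit in both genotypes. The clcnk gene, too, reached the mean of 1 RPKM needed for testing only through its PS libraries, so its values are also given as a description. The size of both genes' differences depends on the value added before the logarithm: with 0.1 in place of 1, slc12a3 differed by -5.72 in MUT and -6.13 in SIB, and clcnk by -4.85 in MUT and -4.37 in SIB, and all stayed called.

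Transport genes with known roles in proximal segments or of broader use did not share one pattern. The mfsd4b gene belongs to the major facilitator family, and its rat counterpart was described as a sodium-dependent glucose transporter of the kidney. Its level was 7.5 and 1.7 RPKM in MUT_AS, 1.84 and 2.23 RPKM in SIB_AS, 16.9 and 22.4 RPKM in MUT_PS, and 21.0 and 15.9 RPKM in SIB_PS. The AS libraries all lay below the PS libraries, and replicates 1 and 3 of MUT_AS enclosed both SIB_AS values. The mean of MUT_AS was 0.234 of that of MUT_PS (log2 difference -2.09, SE 0.44, limma adjusted p = 0.00409), and the mean of SIB_AS was 0.110 of that of SIB_PS (log2 difference -2.67, SE 0.44, limma adjusted p = 0.00159). Within MUT the size rested on which AS library was used, at -2.92 without MUT_AS replicate 1 and -1.27 without MUT_AS replicate 3, and both passed the limma test.

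The sodium bicarbonate cotransporter slc4a4a was nearly level across the trunk. It had 13.3 and 14.3 RPKM in MUT_AS, 12.0 and 11.5 RPKM in SIB_AS, 12.2 and 12.1 RPKM in MUT_PS, and 14.6 and 9.89 RPKM in SIB_PS. The SIB_PS libraries enclosed all the others. The sodium phosphate cotransporter slc20a1a, a marker of the proximal convoluted tubule, had 3.94 and 2.37 RPKM in MUT_AS, 2.89 and 3.34 RPKM in SIB_AS, 2.07 and 2.57 RPKM in MUT_PS, and 3.0 and 2.38 RPKM in SIB_PS, and the groups overlapped between regions. Neither passed the test between regions, with log2 differences of 0.17 and 0.30 (SE 0.18 and 0.22) in MUT for slc4a4a and slc20a1a and of -0.03 and 0.16 (SE 0.18 and 0.22) in SIB (limma adjusted p between 0.257 and 0.901). Without MUT_AS replicate 3 the difference of slc20a1a between MUT_AS and MUT_PS was 0.58 (limma adjusted p = 0.0214).

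**Figure D1:**
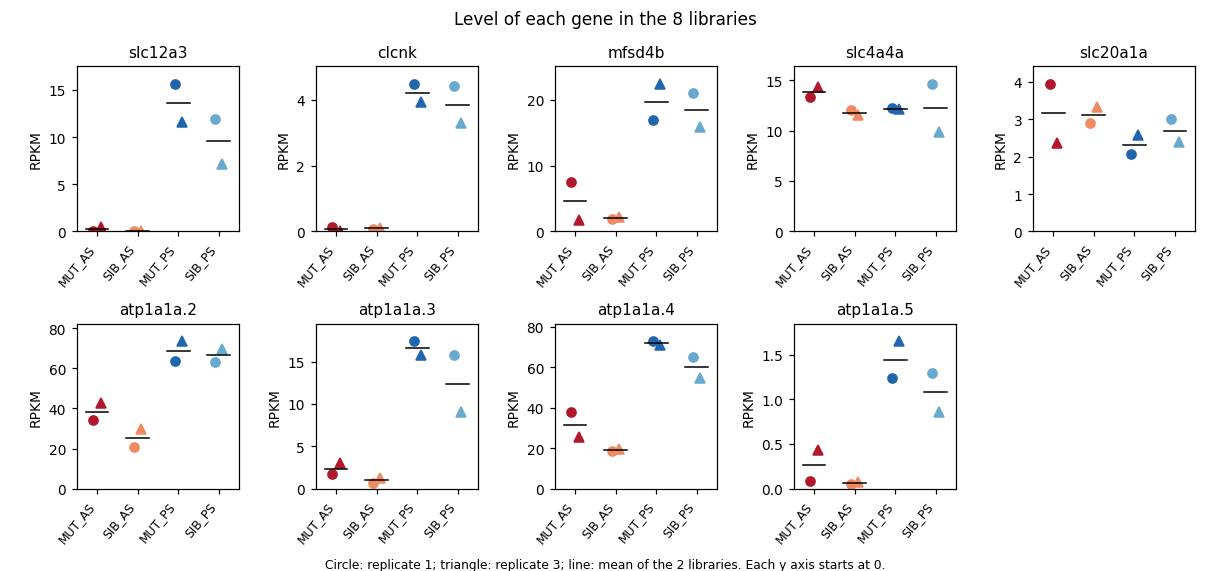
Level in RPKM (y axis, linear) of the 9 transcripts in the 4 groups (x axis), with circles for replicate 1, triangles for replicate 3 and lines for group means. The slc12a3 and clcnk points lie near 0 in all AS libraries and at 3.29 RPKM or more in all PS libraries, while slc4a4a stays between 9.89 and 14.6 RPKM throughout.

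The sodium pump alpha1 subunits made up the rest of the set. In the RefSeq gene order, given for another assembly, atp1a1a.2, atp1a1a.3 and atp1a1a.5 follow each other as direct neighbours. The atp1a1a.4 gene lies just before them, with another alpha1 copy between it and atp1a1a.2. Such close copies can share reads, and how the authors' counting split reads between them is not stated beyond the assignment of each read to one transcript, so the levels of single copies are uncertain. In zebrafish skin, atp1a1a.2 has been assigned to ionocytes that take up sodium with chloride, and atp1a1a.5 to ionocytes rich in proton pumps.

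The table's atp1a1a.2 had 34.3 and 42.5 RPKM in MUT_AS, 20.7 and 29.6 RPKM in SIB_AS, 63.8 and 73.5 RPKM in MUT_PS, and 63.3 and 69.6 RPKM in SIB_PS. The 4 groups kept apart except for MUT_PS and SIB_PS, which overlapped. The mean of MUT_AS was 0.560 of that of MUT_PS (log2 difference -0.83, SE 0.20, limma adjusted p = 0.00596), and the mean of SIB_AS was 0.378 of that of SIB_PS (log2 difference -1.39, SE 0.20, limma adjusted p = 0.000642). Without MUT_PS replicate 3 the difference within MUT was -0.73 (limma adjusted p = 0.0533).

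For atp1a1a.4 the levels were 37.6 and 25.3 RPKM in MUT_AS, 18.6 and 19.5 RPKM in SIB_AS, 72.7 and 71.0 RPKM in MUT_PS, and 64.9 and 54.8 RPKM in SIB_PS. Here all 4 groups were free of overlap, in the order MUT_PS, SIB_PS, MUT_AS, SIB_AS from high to low. The AS mean was 0.437 of the PS mean in MUT (log2 difference -1.19, SE 0.20, limma adjusted p = 0.000798) and 0.318 of it in SIB (log2 difference -1.60, SE 0.20, limma adjusted p = 0.000363).

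The third copy, atp1a1a.3, had 1.67 and 3.03 RPKM in MUT_AS, 0.642 and 1.3 RPKM in SIB_AS, 17.4 and 15.8 RPKM in MUT_PS, and 15.8 and 9.01 RPKM in SIB_PS. Its regions lay further apart than those of the other testable copies. The AS mean was 0.142 of the PS mean in MUT (log2 difference -2.42, SE 0.28, limma adjusted p = 0.000191) and 0.0781 of it in SIB (log2 difference -2.74, SE 0.28, limma adjusted p = 0.000216). The scarce copy atp1a1a.5 had 0.0888 and 0.432 RPKM in MUT_AS, 0.0493 and 0.0695 RPKM in SIB_AS, 1.24 and 1.65 RPKM in MUT_PS, and 1.3 and 0.862 RPKM in SIB_PS. Its AS libraries all lay below its PS libraries, and in MUT_AS replicate 3 only 2.4% of nonzero transcripts were lower. It was outside the tested range, and a fit of all transcripts without a minimum level gave log2 differences of -0.96 in MUT and -0.97 in SIB (limma adjusted p = 0.0044 and 0.00536).

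Within a group the order of levels changed along the trunk. In MUT_AS and SIB_AS alike the 3 highest of the 9 were atp1a1a.2, atp1a1a.4 and slc4a4a, with means of 38.4, 31.4 and 13.8 RPKM in MUT_AS and 25.1, 19.0 and 11.8 RPKM in SIB_AS. The libraries of these neighbours did not overlap, except atp1a1a.2 and atp1a1a.4 in MUT_AS. In MUT_PS atp1a1a.4 (71.9 RPKM) and atp1a1a.2 (68.6 RPKM) came first and overlapped each other, followed by mfsd4b (19.6 RPKM), atp1a1a.3 (16.6 RPKM) and slc12a3 (13.6 RPKM), of which mfsd4b and atp1a1a.3 overlapped. In SIB_PS the first 2 were atp1a1a.2 (66.5 RPKM) and atp1a1a.4 (59.8 RPKM), also overlapping, and atp1a1a.3, slc4a4a and slc12a3 overlapped each with the next at 12.4, 12.2 and 9.54 RPKM.

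Counted over the 8 testable genes, 6 were lower in MUT_AS than in MUT_PS and 2 did not pass. Among the 6, slc12a3 and clcnk reached the minimum mean of 1 RPKM only through their PS libraries, so they had to differ between regions to be tested at all, and the count is given as a description. The background was high: 55.0% of all 10889 tested transcripts passed in MUT, in either direction, and 10.9% passed as lower in AS. Between SIB_AS and SIB_PS 6 of 8 genes were again lower in AS, where 51.2% of all tested transcripts passed in either direction and 9.62% as lower in AS. The median log2 difference of the 8 genes was -1.64 in MUT, against 0.41 over all transcripts, and -1.87 in SIB, against 0.40. Setting libraries to a common median (median scaling) took those medians of all transcripts to -0.02 in both genotypes and raised the share of all transcripts lower in AS to 23.3% in MUT and 21.6% in SIB. All 6 calls were kept in both genotypes under that scaling, as they were without MUT_AS replicate 3, with slc12a3 at -4.0 in MUT and -3.73 in SIB, while the uncalled differences of slc20a1a turned to -0.13 and -0.26 and that of slc4a4a to -0.26 and -0.45. Because the genes were listed with earlier results known, these counts describe the set and do not compare it with other sets.

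**Figure D2:**
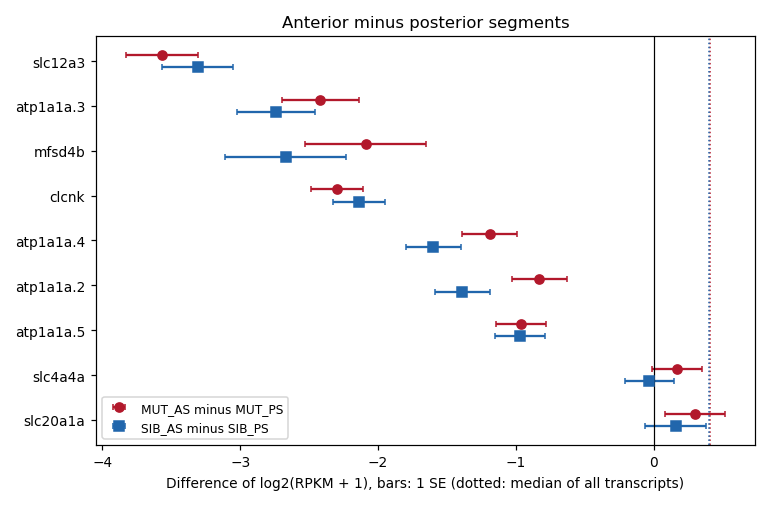
Difference of log2(RPKM + 1), AS minus PS (x axis), for each gene (y axis) in MUT (red circles) and SIB (blue squares), with bars of 1 SE and dotted lines at the medians of all transcripts, 0.41 and 0.40. Slc12a3 lies furthest to the left at -3.57 and -3.31, and slc20a1a lies at 0.30 and 0.16, uncalled and below 0 with a common median per library; atp1a1a.5 comes from the fit without a minimum level.

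Other markers of the tissue also differed between regions. Skeletal muscle genes were lower in AS (12 of 12 called in MUT, 11 of 12 in SIB), with summed levels of 15729 and 17278 RPKM in MUT_AS, 22106 and 28567 RPKM in SIB_AS, 49675 and 50968 RPKM in MUT_PS, and 53098 and 63071 RPKM in SIB_PS. Epidermal genes, which mark the tissue that holds ionocytes, summed to 10114 and 13963 RPKM in MUT_AS, 7616 and 10063 RPKM in SIB_AS, 13692 and 21025 RPKM in MUT_PS, and 13658 and 14624 RPKM in SIB_PS over 18 genes, none at 0, and 6 of 18 in MUT and 9 of 18 in SIB were lower in AS. With a common median per library 14 of these epidermal genes were lower in each genotype. Under that scaling 23.3% of all tested transcripts in MUT and 21.6% in SIB were lower too. Neuronal genes summed to 815 and 620 RPKM in MUT_AS, 866 and 754 RPKM in SIB_AS, 269 and 229 RPKM in MUT_PS, and 280 and 246 RPKM in SIB_PS over 10 genes, and were higher in AS for 7 of 9 tested genes in MUT and 9 of 9 in SIB. Genes of liver, gut and pancreas summed to 813 and 602 RPKM in MUT_AS, 929 and 864 RPKM in SIB_AS, 1729 and 1413 RPKM in MUT_PS, and 1570 and 1145 RPKM in SIB_PS over 16 genes, 1 of them at 0 in all libraries. In both genotypes 4 of 10 tested genes were higher and 5 of 10 lower in AS. The 4 higher were the hormone genes ins, gcga, gcgb and sst2, and the 5 lower were apoa1a, apoa4, apobb, fabp2 and tfa. The gcga gene reached the minimum mean of 1 RPKM only through its AS libraries, so its call is given as a description. The MUT_PS replicates 1 and 3 of the hormone genes lay apart, at 0.444 and 6.5 RPKM for ins and 0.234 and 6.21 RPKM for gcgb. For gcga they had 0.0785 and 0.921 RPKM, and for sst2 0.0 and 2.72 RPKM. In MUT the number of these genes called higher depended on MUT_AS replicate 3. Beside the counts without that scaling, 44.0% of all tested transcripts were higher and 10.9% lower in AS in MUT, and 41.6% and 9.62% in SIB. The part of these tissues in the results on transport genes was not tested.

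The rest of the pronephros was read from lists of other genes, also drawn up with earlier results known. Of 34 other genes of tubule transport and duct, 27 were in the table and 17 were tested. In MUT 5 were higher and 4 lower in AS, with a median log2 difference of -0.08. In SIB 4 were higher and 7 lower, with a median of -0.09. Over all tested transcripts 44.0% were higher and 10.9% lower in AS in MUT, and 41.6% and 9.62% in SIB. With a common median per library the counts of the list were 3 higher and 8 lower in MUT and 1 higher and 10 lower in SIB, so the balance of this list depended on the scaling. Of all 10889 tested transcripts, 2292 were then higher and 2540 lower in MUT, and 1984 higher and 2347 lower in SIB.

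The largest fall in AS on that list was that of kcnj1a.1, a potassium channel of the ROMK type. It had 0.187 RPKM in MUT_AS replicate 1 and was listed at 0 in replicate 3, and it had 0.179 and 0.0978 RPKM in SIB_AS, 4.56 and 3.92 RPKM in MUT_PS, and 3.31 and 3.57 RPKM in SIB_PS. Both regions were clearly separated, with log2 differences of -2.26 in MUT and -1.96 in SIB (limma adjusted p = 7.8e-05 and 0.000181). Like slc12a3 and clcnk, kcnj1a.1 reached the minimum mean of 1 RPKM only through its PS libraries. It had to differ between regions to be tested at all, so these values are given as a description. The cadherin gene cdh17, expressed along tubule and duct, had 21.0 and 16.6 RPKM in MUT_AS, 12.6 and 13.7 RPKM in SIB_AS, 42.2 and 37.9 RPKM in MUT_PS, and 44.2 and 30.3 RPKM in SIB_PS, and was lower in AS in both genotypes (log2 differences -1.06 and -1.41, limma adjusted p = 0.00179 and 0.000642). The aquaporin gene aqp8a.1 (-1.52 and -1.31) and the anion exchanger gene slc26a1 (-0.83 and -1.02) were also lower in AS in MUT and in SIB (limma adjusted p = 0.000725, 0.00196, 0.0152 and 0.00642). In SIB the test was also passed by the scaffold gene pdzk1 (-0.65), by pdzk1ip1 (listed as pdzk1ip1l, -0.83) and by the sodium hydrogen exchanger gene slc9a3.1 (-0.84). In MUT these 3 passed with a common median per library (-0.83, -0.94 and -0.64, limma adjusted p = 0.00441, 0.0104 and 0.0269), and pdzk1ip1 also without MUT_AS replicate 3 (limma adjusted p = 0.0042). The interaction passed for none of them. The slc9a3.1 gene, too, reached the minimum mean of 1 RPKM only through its PS libraries.

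Higher in AS were slc12a1, the sodium potassium chloride cotransporter of the early distal tubule, and kcnj1b, a second ROMK-type channel gene. The levels of slc12a1 were 6.67 and 9.3 RPKM in MUT_AS, 4.38 and 6.46 RPKM in SIB_AS, 2.44 and 2.56 RPKM in MUT_PS, and 1.92 and 2.9 RPKM in SIB_PS (log2 difference 1.35 in MUT and 0.91 in SIB, limma adjusted p = 0.000977 and 0.00855). Those of kcnj1b were 2.84 and 7.62 RPKM in MUT_AS, 3.66 and 2.69 RPKM in SIB_AS, 1.05 and 1.04 RPKM in MUT_PS, and 1.28 and 0.928 RPKM in SIB_PS (log2 difference 1.49 in MUT and 0.98 in SIB, limma adjusted p = 0.00331 and 0.0274). Thus the regions of both genes were separate, on the opposite side from slc12a3, clcnk and kcnj1a.1. With a common median per library both differences stayed called in MUT (0.92 and 1.06) and were no longer called in SIB (0.49 and 0.57, limma adjusted p = 0.141 and 0.213). The endocytosis receptor gene lrp2a passed in MUT (0.61), and the receptor tyrosine kinase gene ret and the transcription factor gene gata2a passed in both (0.57 and 1.31 in MUT, 0.51 and 1.14 in SIB), although ret and gata2a are also used by neurons. Under the median scaling gata2a stayed called in both, whereas lrp2a (0.18 in MUT, limma adjusted p = 0.383) and ret (0.13 in MUT and 0.10 in SIB, limma adjusted p = 0.493 and 0.636) were no longer called.

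**Figure D3:**
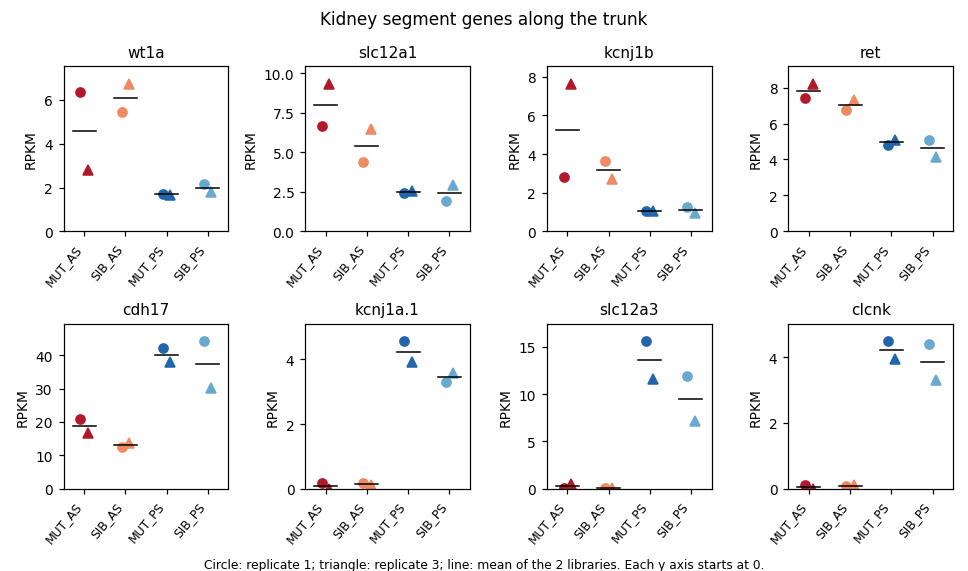
Level in RPKM (y axis, linear) of 8 genes of the pronephros in the 4 groups (x axis), with circles for replicate 1, triangles for replicate 3 and lines for group means. In the upper row wt1a, slc12a1, kcnj1b and ret lie higher in AS, and in the lower row cdh17, kcnj1a.1, slc12a3 and clcnk lie higher in PS.

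Regulators of the pronephros and genes of the glomerulus are read against the share of all tested transcripts that was higher in AS, 44.0% in MUT and 41.6% in SIB. Of 28 listed, 26 were in the table and 23 tested. In MUT 16 were higher in AS and none lower, against 17 higher and 1 lower in SIB (median log2 difference 0.97 and 0.96). The called genes pax2b and wt1b reached the minimum mean of 1 RPKM only through their AS libraries. They had to be higher in AS to be tested at all, so the counts are given as a description. With a common median per library the counts were 11 higher and 2 lower in MUT and 11 higher and 4 lower in SIB. Under that scaling 2292 of all 10889 tested transcripts were higher in AS in MUT and 1984 in SIB, and 23.3% and 21.6% were lower. The podocyte gene podxl was higher in AS by 1.05 in MUT and 1.44 in SIB, and wt1a, a transcription factor gene of podocytes, by 0.97 and 1.25 (limma adjusted p = 0.000529, 0.000245, 0.0129 and 0.00438). Median scaling left podxl called in both genotypes and wt1a called in SIB, but not wt1a in MUT (0.54, limma adjusted p = 0.129). The kidney transcription factor genes pax2a (1.39 and 1.27) and lhx1a (1.33 and 1.5) rose in AS too, and both also act in spinal neurons, whose markers are given above. The one called fall was that of hnf1ba, a regulator of tubule identity, in SIB (-0.53, limma adjusted p = 0.0352). With a common median it passed in MUT as well (-0.81, limma adjusted p = 0.00459). Other glomerulus genes of the list did not all follow podxl and wt1a. The mafba gene passed in SIB (0.51, limma adjusted p = 0.0429) and not in MUT (0.41, limma adjusted p = 0.0872). The cd2ap gene was not called in MUT (-0.18, limma adjusted p = 0.381). With a common median cd2ap was called lower in AS in both genotypes (-0.61 in MUT and -0.63 in SIB, limma adjusted p = 0.0145 and 0.0142).

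Among other ionocyte genes, 30 of 34 were in the table and 24 tested. Against 44.0% higher and 10.9% lower in AS over all tested transcripts, 4 were higher and 2 lower in MUT (median log2 difference 0.22). In SIB, against 41.6% and 9.62%, 2 were higher and 2 lower (median -0.04). With a common median the counts were 1 higher and 2 lower in MUT and 1 higher and 5 lower in SIB. The median of the list turned to -0.21 in MUT and stayed negative in SIB with a common median. Of all 10889 tested transcripts, 2292 were then higher and 2540 lower in MUT, and 1984 higher and 2347 lower in SIB. The carbonic anhydrase gene ca2 (-1.23 and -1.16) and the claudin gene cldnh (-1.05 and -0.97) were lower in AS in MUT and SIB, and the carbonic anhydrase gene ca4a (1.1 and 1.26) and the cotransporter gene slc12a2 (0.73 and 0.71) were higher (limma adjusted p between 0.00135 and 0.0169). After that scaling ca2 and cldnh stayed called in both, ca4a stayed called in SIB and not in MUT (0.67, limma adjusted p = 0.0773), and slc12a2 was called in neither (0.30 in both, limma adjusted p = 0.276 in MUT and 0.305 in SIB). The ca4a gene reached the minimum mean of 1 RPKM only through its AS libraries, so its regional values are given as a description. The cotransporter gene slc12a10.2, which skin ionocytes of zebrafish use in place of slc12a3, had 0.886 and 1.49 RPKM in MUT_AS, 0.503 and 1.04 RPKM in SIB_AS, 0.606 and 1.79 RPKM in MUT_PS, and 0.867 and 1.42 RPKM in SIB_PS. Its 4 groups overlapped.

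The partners of the alpha1 subunits were divided between regions. Of 17 other pump subunit genes and regulators, 14 were in the table and 12 tested, and 4 were higher and 5 lower in AS in MUT and 4 higher and 4 lower in SIB (median log2 difference -0.10 and -0.20). The shares of all tested transcripts were 44.0% higher and 10.9% lower in MUT, and 41.6% and 9.62% in SIB. With a common median the counts of this list were 2 higher and 6 lower in both, where 23.3% of all tested transcripts in MUT and 21.6% in SIB were lower. The beta subunit gene atp1b1a was lower in AS (-0.90 in MUT and -1.0 in SIB, limma adjusted p = 0.00257 and 0.00182), as was atp1b1b (-0.59 and -1.08, limma adjusted p = 0.0439 and 0.00299). A further beta gene, atp1b3b, was also lower (-0.38 and -0.52). By contrast, the beta genes atp1b2a (0.79 and 0.84) and atp1b3a (0.66 and 0.40) were higher in AS, as was nkain1 (1.54 and 1.36). Limma adjusted p for these lay between 0.000238 and 0.0482. With a common median atp1b2a and atp1b3a were called in neither genotype. The alpha subunit gene atp1a2a, known from muscle, was lower in AS (-1.50 and -1.18), and atp1a3a, known from neurons, was higher (1.13 and 1.17, limma adjusted p between 0.000272 and 0.00107 for both genes).

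Between genotypes none of the 8 genes passed the test in AS, where 5 of all 10889 tested transcripts, 0.0459%, did. Before adjustment 3 of the 8 had a limma p under 0.05, against 1270 of 10889 transcripts. These 3 were pump subunit genes, higher in both MUT_AS libraries than in both SIB_AS libraries. The ratio of group means was 1.53 for atp1a1a.2 (log2 difference 0.60, SE 0.20, limma adjusted p = 0.337), 2.42 for atp1a1a.3 (0.76, SE 0.28, limma adjusted p = 0.372) and 1.65 for atp1a1a.4 (0.67, SE 0.20, limma adjusted p = 0.305). With slc4a4a, 4 of the 8 genes had no overlap between MUT_AS and SIB_AS, all higher in MUT_AS, as had 27.0% of all tested transcripts. The median log2 difference of the 8 was 0.42, against 0.08 over all transcripts.

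These pump differences in AS rested on which MUT_AS library was used. Without MUT_AS replicate 1, atp1a1a.2 and atp1a1a.3 passed (0.76 and 1.05, limma adjusted p = 0.0431 and 0.0457), in a fit in which 10.1% of all tested transcripts passed. Without MUT_AS replicate 3, atp1a1a.4 and mfsd4b passed instead (0.95 and 1.49, limma adjusted p = 0.033 and 0.00969), where 0.716% of all tested transcripts did, and mfsd4b had a difference of -0.17 without replicate 1. With both libraries mfsd4b differed by 0.66 (SE 0.44, limma adjusted p = 0.577), slc12a3 by 0.23, slc4a4a by 0.21, slc20a1a by -0.01 and clcnk by -0.04 (limma adjusted p between 0.577 and 0.991). The untested atp1a1a.5 had both MUT_AS values above both SIB_AS values, with a difference of 0.24 in the fit without a minimum level.

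Values of several tissue markers lay to one side between genotypes in the same libraries. Epidermal genes had a positive difference between MUT_AS and SIB_AS in 17 of 18 cases (median 0.35) and between MUT_PS and SIB_PS in 16 of 18 (median 0.22). Their sums are given above. The muscle genes were all on the negative side in AS, 0 of 12 positive, with a median of -0.61. Erythroid genes, which include the anion exchanger gene slc4a1a that is also on the ionocyte list, were positive for 9 of 9 in both regions (medians 1.09 in AS and 1.77 in PS), with summed levels of 4843 and 1481 RPKM in MUT_AS, 1704 and 617 RPKM in SIB_AS, 7316 and 2367 RPKM in MUT_PS, and 1324 and 1034 RPKM in SIB_PS. With all libraries no gene of these 3 lists passed the limma test between genotypes. Without MUT_AS replicate 3 the median difference of the muscle genes in AS was -0.67. The part of these tissues in the higher values of the pump genes was not tested.

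In PS none of the 8 genes passed between MUT_PS and SIB_PS, and 0.0% of all 10889 transcripts did. At an unadjusted limma p under 0.05 the counts were 0 of 8 genes and 291 of all transcripts. The difference of slc12a3 was 0.49 (SE 0.26), the largest of the 8, with MUT_PS values of 15.6 and 11.6 RPKM and SIB_PS values of 11.9 and 7.16 RPKM that overlapped. The other differences were 0.44 for atp1a1a.3, 0.27 for atp1a1a.4, 0.11 for clcnk, 0.08 for mfsd4b, 0.04 for atp1a1a.2, 0.01 for slc4a4a and -0.15 for slc20a1a. Both MUT_PS libraries lay above both SIB_PS libraries for atp1a1a.4 and, by less than the rounding shown, for atp1a1a.3, so for 2 of 8 genes, as they did for 23.8% of all tested transcripts. The median of the 8 was 0.10, against 0.06 over all transcripts.

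**Figure D4:**
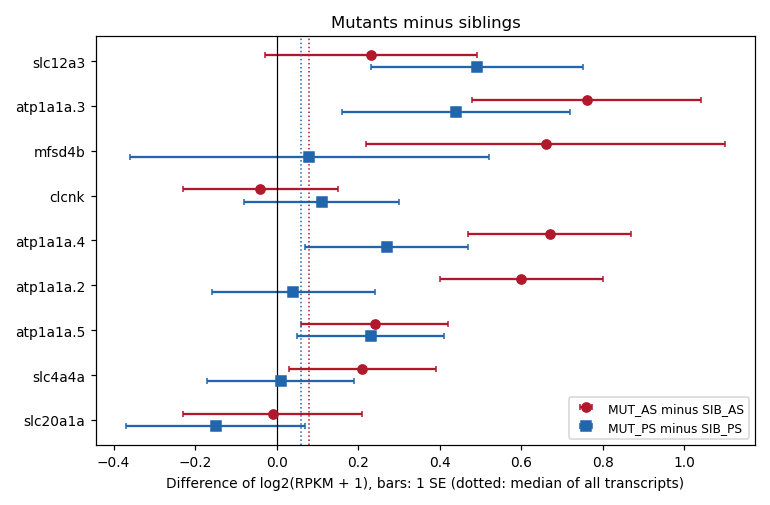
Difference of log2(RPKM + 1), MUT minus SIB (x axis), for each gene (y axis) in AS (red circles) and PS (blue squares), with bars of 1 SE and dotted lines at the medians of all transcripts, 0.08 and 0.06. The pump genes atp1a1a.2, atp1a1a.3 and atp1a1a.4 lie at 0.60 to 0.76 in AS, and no gene passed the test in either region; atp1a1a.5 comes from the fit without a minimum level.

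The difference between genotypes was then compared between regions. The interaction of genotype and region passed for none of the 8 genes and for 0.0% of all transcripts (limma), with 0 of 8 and 298 of 10889 at an unadjusted p under 0.05. Its values were 0.58 for mfsd4b, 0.56 for atp1a1a.2, 0.40 for atp1a1a.4, 0.32 for atp1a1a.3, 0.20 for slc4a4a, 0.14 for slc20a1a, -0.15 for clcnk and -0.26 for slc12a3. A different response to the mutation in AS and PS was thus not shown for any of these genes. The comparisons between regions and those between genotypes share libraries, so they are not independent of each other.

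The 4 lists of other kidney, ionocyte and pump genes had no called gene between genotypes either (limma), in AS, in PS or in the interaction. At an unadjusted p under 0.05 in AS there were 3 of 23 regulators, 2 of 17 tubule genes, 5 of 24 ionocyte genes and 4 of 12 pump subunits, and in PS there was 1 of 23 regulators and 0 in the other 3 lists. Of all 10889 tested transcripts, 1270 had such a limma p in AS and 291 in PS. Median differences in AS were 0.18 for regulators and glomerulus, 0.25 for tubule transport and duct, 0.09 for ionocyte genes and -0.07 for other pump subunits, and in PS they were 0.14, 0.05, 0.02 and -0.02. In AS, cdh17 (0.48), slc12a1 (0.49) and pdzk1 (0.46) of the tubule and the transcription factor genes hnf1bb (0.58) and hnf4a (0.63) were higher in both MUT libraries than in both SIB libraries and did not pass (limma adjusted p between 0.34 and 0.447). Among ionocyte genes the transcription factor genes gcm2 (0.67) and foxi3a (0.64), the carbonic anhydrase gene ca15a (0.54) and the ammonium transporter gene rhag (0.62) had both MUT_AS libraries above both SIB_AS libraries without passing (limma adjusted p between 0.333 and 0.408). The same order of libraries was found for 27.0% of all tested transcripts. The foxi3a levels were 3.23 and 4.66 RPKM in MUT_AS, 1.72 and 2.61 RPKM in SIB_AS, 2.09 and 4.31 RPKM in MUT_PS, and 2.61 and 2.89 RPKM in SIB_PS. Of the pump partners, atp1b1b had 29.8 and 46.8 RPKM in MUT_AS, 20.1 and 26.3 RPKM in SIB_AS, 53.1 and 60.6 RPKM in MUT_PS, and 49.0 and 50.6 RPKM in SIB_PS (difference between genotypes in AS 0.68, limma adjusted p = 0.331). Both MUT_AS libraries lay above both SIB_AS libraries, as for the 3 alpha subunit genes and for the alpha subunit gene atp1a1b (0.50, limma adjusted p = 0.331). They lay below for atp1a2a (-0.52) and the pump regulator gene fxyd7 (-0.45, limma adjusted p = 0.367 and 0.35).

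Over the 8 libraries slc12a3 followed clcnk (Pearson r = 0.990), atp1a1a.3 (0.982), atp1a1a.5 (0.966), atp1a1a.4 (0.929), atp1a1a.2 (0.906) and mfsd4b (0.900). These values describe a split between 4 AS and 4 PS libraries more than a graded relation, since the points share libraries and depth. Among all other tested transcripts averaging 5 RPKM or more, the 3 most like slc12a3 were c1qtnf9 (0.997), hoxb10a (0.997) and zgc:66286 (0.995). The secreted-protein gene c1qtnf9 had 1.4 and 2.67 RPKM in MUT_AS, 1.13 and 1.24 RPKM in SIB_AS, 26.2 and 22.8 RPKM in MUT_PS, and 19.9 and 15.2 RPKM in SIB_PS. For slc20a1a the most alike were fah (0.933), LOC796017 (0.908) and zgc:55461 (0.900), and its r with slc12a3 was -0.607.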

How the data were processed

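Stranded poly(A) libraries of zebrafish trunk pieces were made with the TruSeq kit and sequenced as paired ends on an Illumina HiSeq, per the labels' protocols. The authors aligned them with RUM to Zv9 (danRer7), which gave every read to 1 transcript, per the design text. The deposited table gives log2(RPKM + 1) per RefSeq transcript, per the file headers. The authors' ratio columns, called fold change per the file headers, served only to drop 228 fill rows of 14809. RefSeq names matched 13706 accessions (94.0%).

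RPKM was recovered from the log2 values. Transcripts averaging 1 RPKM or more (10889) entered a fit by limma 3.58.1 (R 4.3.3, statmod 1.5.0) with 1 mean per group over all 8 libraries and spread moderated with trend and robust options. Benjamini-Hochberg adjusted p under 0.05 over all tested transcripts was called, with no fold minimum. The fit was tested on simulated data. Without counts, no counting intervals could be given.

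Named are all members, and of each other list the called genes or, per comparison, up to 4 uncalled genes with the smallest p among those whose groups do not overlap; slc12a10.2 was added after its values were seen, and some items are not reported here. Lists cover pronephric regulators and glomerulus, tubule transport and duct, ionocytes, other pump subunits, and markers of epidermis, muscle, neurons, erythroid cells, liver with gut and pancreas, and corpuscles of Stannius with interrenal. Members, lists and tests were chosen with earlier results of these data known.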

Additional observations from a re-analysis of the deposited data

How the results depend on the processing

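Alternatives changed the pseudocount, the filter, the scaling, the spread model, the replicate block or the libraries used, and gave 592 values for the genes described. Of these 561 kept direction and side of the threshold, 1 lost a call, 5 gained one and 25 changed sign. The 6 regional calls in SIB held under every alternative run, and those in MUT did too, except atp1a1a.2 without MUT_PS replicate 3 (-0.73). Under median scaling, MUT_PS against SIB_PS turned to -0.02 for atp1a1a.2 and -0.06 for slc4a4a, slc20a1a between regions to -0.13 in MUT and -0.26 in SIB, and slc4a4a in MUT to -0.26. A pseudocount of 0.1 turned the interaction of slc12a3 to 0.41. Over all transcripts, calls between MUT_AS and SIB_AS numbered 3 with no filter, 3 with a weight per group and 0 with the 4 libraries of the comparison, and between MUT_PS and SIB_PS they numbered 17 with a weight per group and 99 with 4 libraries. Leaving out 1 library gave 2 to 1105 calls between MUT_AS and SIB_AS, 0 to 15 between MUT_PS and SIB_PS, 3161 to 6967 between SIB_AS and SIB_PS and 0 to 199 for the interaction, and 0 to 2 calls among the 8 genes between MUT_AS and SIB_AS. Differences whose sign depended on 1 library ranged, between MUT_AS and SIB_AS, from -0.01 to 0.47 for slc12a3, -0.17 to 1.49 for mfsd4b, -0.28 to 0.27 for slc20a1a and -0.12 to 0.04 for clcnk. Between MUT_PS and SIB_PS they ranged from -0.06 to 0.14 for atp1a1a.2, -0.11 to 0.28 for mfsd4b, -0.25 to 0.27 for slc4a4a and -0.06 to 0.28 for clcnk, and between SIB_AS and SIB_PS from -0.29 to 0.23 for slc4a4a. Interactions ranged from -0.59 to 0.07 for slc12a3, -0.06 to 0.69 for atp1a1a.3, -0.25 to 1.4 for mfsd4b, -0.13 to 0.42 for slc20a1a, -0.06 to 0.46 for slc4a4a and -0.32 to 0.02 for clcnk. The cause of these changes was not tested. The replicate endings 1 and 3 were not taken as pairs in the main fit. Deviations of same-numbered libraries correlated at 0.522 between SIB_AS and SIB_PS and at 0.215 between MUT_AS and MUT_PS. For the other combinations of groups they correlated between -0.0942 and 0.371. These values do not decide whether the endings mark pairs. With the replicate block, calls numbered 7 in MUT_AS against SIB_AS, 0 in MUT_PS against SIB_PS, 6330 between regions in MUT, 5976 in SIB and 0 in the interaction, and among the 8 genes 0, 0, 6, 6 and 0. Taking a lower transcript of a gene was not run, since each gene had 1 transcript. Where an AS group keeps 1 library, that library is assumed to vary like the other groups. Shallow depth of MUT_AS replicate 3 limits all values near 0.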

Other observations

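Genes of the corpuscles of Stannius, endocrine glands that form from the distal pronephros, and of the interrenal were also in the table, with 8 of 10 present and 3 tested. The stanniocalcin gene stc1l had 0.137 and 1.26 RPKM in MUT_AS, 0.206 and 0.338 RPKM in SIB_AS, 24.6 and 23.4 RPKM in MUT_PS, and 12.7 and 13.5 RPKM in SIB_PS. All PS libraries were above all AS libraries, and it was lower in AS, with log2 differences of -3.96 in MUT and -3.47 in SIB (limma adjusted p = 4.25e-05 and 9.1e-05). It reached the minimum mean of 1 RPKM only through its PS libraries. It thus had to differ between regions to be tested at all, and these values are given as a description. Both MUT_PS values of stc1l lay above both SIB_PS values, with a difference of 0.83 that did not pass (limma adjusted p = 1.0, unadjusted p = 0.0125). The steroid synthesis gene star was the single gene of this list called between genotypes, lower in MUT_AS than in SIB_AS with a log2 difference of -2.72 (limma adjusted p = 0.00141). It reached the minimum mean of 1 RPKM only through its SIB_AS libraries, at 7.94 and 11.5 RPKM, so the call is given as a description. In that comparison 5 of all 10889 tested transcripts were called. The summed level of the list was 8.35 and 10.22 RPKM in MUT_AS, 14.32 and 20.12 RPKM in SIB_AS, 33.55 and 35.26 RPKM in MUT_PS, and 23.09 and 23.93 RPKM in SIB_PS.

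A sodium hydrogen exchanger gene of ionocytes, slc9a3.2, was below the tested range. It had 0.0035 RPKM in MUT_AS replicate 1 and was listed at 0 in replicate 3, and it had 0.0096 RPKM in SIB_AS replicate 1 and was listed at 0 in replicate 3. In PS it had 0.57 and 0.525 RPKM in MUT and 0.548 and 0.395 RPKM in SIB.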
